A study of Mus musculus with 8 samples.

Results

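*Phf21b* and the genes of the LSD1–CoREST complex were examined in cultured mouse hippocampal neurons exposed to melanin-concentrating hormone (MCH). The set has 9 genes of the 45706 in the gene table, and all 9 were among the 14962 genes with enough reads to be tested. They are *Phf21b* and its paralog *Phf21a*, *Kdm1a*, *Rcor1*, *Rcor2*, *Rcor3*, *Hdac1*, *Hdac2* and *Rest*. *Phf21b* was chosen by its gene counts, which were lower after MCH in these wells, so its treatment values are a description and carry no test. The other 8 genes were added because their products work together in one corepressor complex or recruit it.

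Neurons were isolated from the hippocampus of wild-type C57/Bl6 mice at embryonic day 18, and both treatments share this genotype and age. Wells received 1 µM MCH peptide or vehicle (H2O) for 4 h and were collected at 12 to 14 days in vitro. There were 4 wells per treatment, numbered replicates 1 to 4, from 2 independent cultures that each gave 2 wells per treatment, and the culture of each replicate is not given. *P* values therefore measure the spread between wells of few cultures, part of which may be technical. Although the genotype entry of the labels is wild type, a disease entry there names Alzheimer's disease.

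LSD1, the product of *Kdm1a*, removes methyl groups from lysine 4 of histone H3. It acts on nucleosomes through a CoREST scaffold encoded by *Rcor1*, *Rcor2* or *Rcor3*, which also holds the histone deacetylases HDAC1 and HDAC2. The PHD finger protein PHF21A (BHC80) binds histone H3 tails that lack this methylation, and the zinc finger factor REST brings the complex to neuronal genes that are silenced outside neurons. Neurons also make an LSD1 form that contains a short extra exon, whose inclusion is promoted by the splicing factors encoded by *Srrm4* and *Nova1*.

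That exon, of 12 bases, lies at chr4:136563438-136563449 on the minus strand of GRCm38, within the coding part of *Kdm1a*. A further alternative exon of 60 bases lies at chr4:136582040-136582099. The sequences below come from GENCODE vM21 transcripts. They are shown 5′ to 3′ because the *Kdm1a* transcripts compared below differ in these exons. Those results are estimates over whole transcripts, and reads across the junctions were not counted. Capitals mark the exon between 24 bases of each neighbouring exon.
Kdm1a-208, with the 12-base exon: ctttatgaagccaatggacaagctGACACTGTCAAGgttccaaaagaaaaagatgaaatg
Kdm1a-202, without the 12-base exon: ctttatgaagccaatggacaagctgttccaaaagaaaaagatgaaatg
Kdm1a-202, with the 60-base exon: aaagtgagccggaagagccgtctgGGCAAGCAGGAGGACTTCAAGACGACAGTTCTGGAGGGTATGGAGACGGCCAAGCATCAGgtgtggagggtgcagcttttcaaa
Kdm1a-203, without the 60-base exon: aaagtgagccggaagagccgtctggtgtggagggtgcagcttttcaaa

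The libraries held 26083936 to 31844861 estimated counts each. Markers of neurons dominated, with a summed level of 4437 to 4780 TPM (salmon's transcript abundance, scaled for transcript length and depth) over 6 genes in each well. Astrocyte markers (7 genes) summed to 325 to 363 TPM in replicates 1 and 2 and to 914 to 1073 TPM in replicates 3 and 4 of both treatments. Markers of dividing progenitors, microglia, fibroblasts or vessels, and oligodendrocyte lineage cells were also higher in replicates 3 and 4, and neuronal markers were lower. *Sox10*, which defines the oligodendrocyte lineage, was under 3 counts in every well. The summed TPM of each marker list overlapped between vehicle and MCH wells. With the replicate number as a block, edgeR called 1 excitatory neuron marker (higher), 1 inhibitory neuron marker (lower) and 1 astrocyte marker (higher), against 3.98% of all genes. Without a block it called 0 in these lists. Of the tested markers, 7 of 7 for astrocytes were higher with MCH, 5 of 6 for excitatory neurons higher and 5 of 6 for inhibitory neurons lower. In such bulk samples, fewer cells of a type and less RNA per cell cannot be told apart.

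Of the 9 genes, *Phf21b* was lower in every MCH well than in any vehicle well. *Rcor2* had a log2 fold change of 0.36 with overlapping wells, and the log2 fold changes of the others lay between −0.07 and 0.11. In the comparison of all genes, edgeR's quasi-likelihood test called 35 of 14962 genes differentially expressed (DE, adjusted *P* under 0.05), or 0.234% of genes, 31 of them lower (0.207%) and 4 higher (0.0267%) with MCH. *Phf21b* was chosen for being lower with MCH in these wells, so no call is given for it. None of the other 8 genes was DE. At an unadjusted *P* under 0.05, 1 of the 8 passed (*Rcor2*), as did 8.5% of all genes, and DESeq2 called 0 of the 8. With the replicate number as a block, 3.98% of all genes were DE (2.25% lower, 1.73% higher), and *Rcor2* was the 1 gene of the 8 that passed. The replicate pairs used below and this block rest on a pairing by number that was read from these counts. MCH was lower in all 4 pairs for 3 of the 9 genes and higher in all for 2. The share of all genes with such pairs was not counted.

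**Figure D1:**
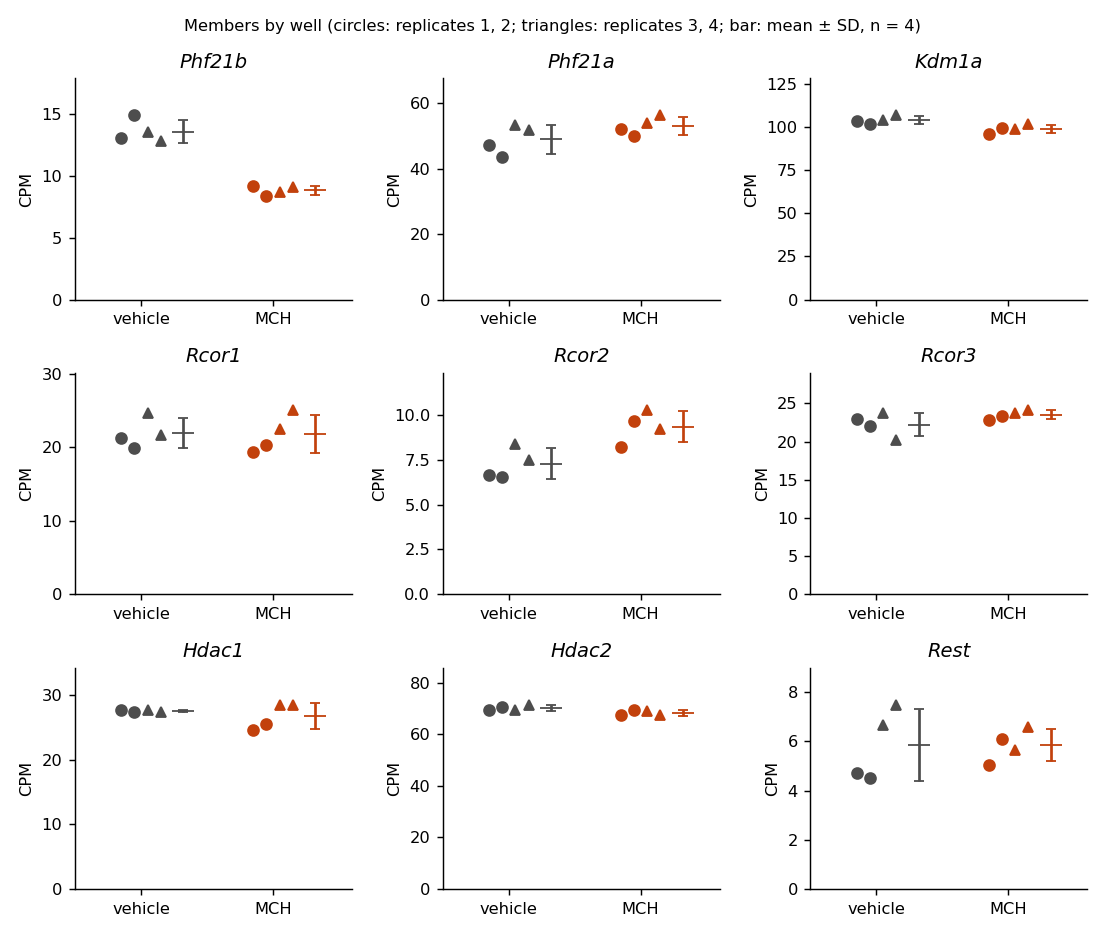
CPM (counts scaled for library size, vertical axes, each from 0) of the 9 genes in 4 vehicle and 4 MCH wells. Points are wells, circles replicates 1 and 2, triangles replicates 3 and 4, and bars the mean ± SD. *Phf21b* lay at 12.8 to 14.9 CPM in vehicle and 8.37 to 9.16 CPM in MCH, and the wells of *Rcor2* overlapped slightly at 8.20 and 8.38 CPM.

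*Phf21b* (ENSMUSG00000016624, chr15:84785381-84856049, minus strand) encodes a PHD finger protein. In CPM (counts scaled for library size and not for length), vehicle replicates 1 to 4 had 13.0, 14.9, 13.5 and 12.8, and MCH replicates 1 to 4 had 9.16, 8.37, 8.68 and 9.12. The treatments did not overlap, and the lowest vehicle well lay well above the highest MCH well. The mean was 13.6 ± 0.936 CPM (SD, n = 4) in vehicle and 8.83 ± 0.380 CPM in MCH, a log2 fold change of −0.62 with a standard error (SE) of 0.07. Within the replicate pairs the log2 difference was −0.51, −0.83, −0.64 and −0.49. It was −0.67 over replicates 1 and 2 and −0.56 over replicates 3 and 4. Mean *Phf21b* itself was 11.4 CPM in replicates 1 and 2 and 11.0 CPM in replicates 3 and 4. With any 1 well left out, the log2 fold change ranged from −0.64 to −0.57.

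Nearly all *Phf21b* reads fell on 2 protein-coding transcripts, Phf21b-201 (3377 bases) and Phf21b-203 (3639 bases). Together these had 330, 390, 377 and 328 estimated reads in vehicle and 280, 219, 245 and 248 in MCH. The highest MCH well was below the lowest vehicle well. Their division was less steady: the share on Phf21b-201 ranged from 31.9 to 77.2% in vehicle and from 41.1 to 73.9% in MCH, with means of 55.7% and 55.2%. The split between the 2 forms therefore varied far more between wells than between treatments. A short retained-intron transcript, Phf21b-202 (324 bases), took 1.68% of the reads but 40.3% of the gene's TPM, because salmon assigned it an effective length of 74.1 bases. With this transcript included, the summed TPM of the treatments overlapped, at 10.5 to 14.9 in vehicle and 6.42 to 11.5 in MCH. Over transcripts of at least 500 bases it was 6.79 to 8.16 TPM in vehicle and 4.51 to 5.22 TPM in MCH. When counts were corrected for the mean transcript length in each well, the log2 fold change was −0.42 (SE 0.18), and −0.65 (SE 0.09) when transcripts under 500 bases were left out of that correction.

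**Figure D2:**
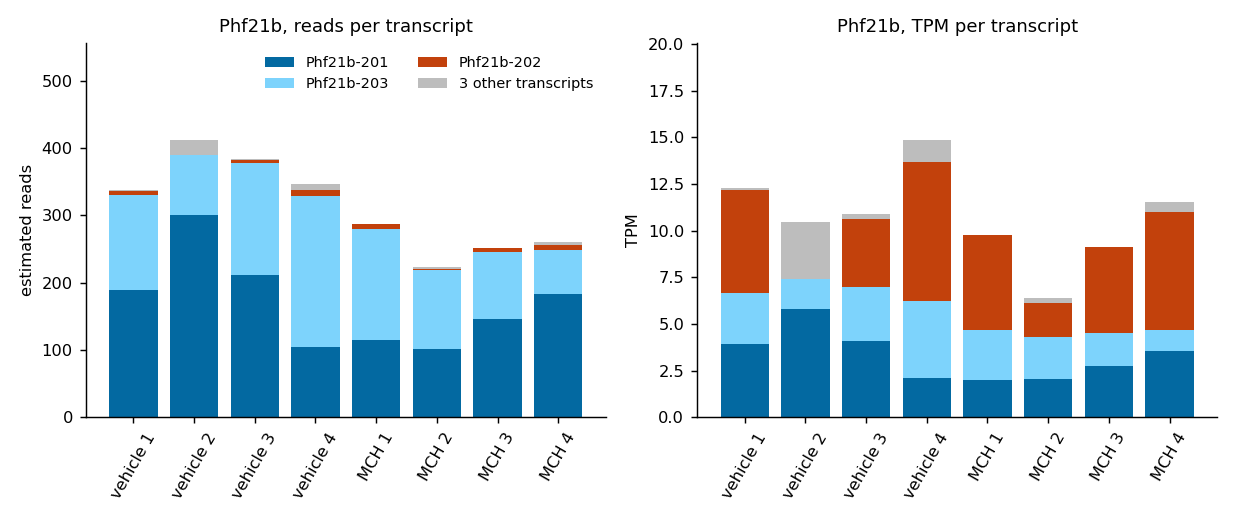
Estimated reads (left axis) and TPM (right panel axis) on the transcripts of *Phf21b* in each of 8 wells, stacked by transcript. Phf21b-201 and Phf21b-203 carried 219 to 390 reads per well, whereas Phf21b-202, with 1.68% of reads, made up 40.3% of TPM.

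*Phf21a*, the better known paralog, had 47.2, 43.6, 53.4 and 51.9 CPM in vehicle and 52.1, 49.9, 53.9 and 56.4 CPM in MCH. MCH was higher in 4 of 4 pairs, but the wells overlapped. The log2 fold change of 0.11 (SE 0.07) did not pass edgeR's quasi-likelihood test (adjusted *P* = 0.725, and 0.144 with the replicate block). It was 0.34 (SE 0.10, edgeR adjusted *P* = 0.475) with the length correction that left out transcripts under 500 bases, and 0.07 without vehicle replicate 2. Measured per length over transcripts of at least 500 bases, *Phf21b* made up 20.8 ± 3.05% of the summed TPM of both paralogs in vehicle (n = 4) and 11.5 ± 1.23% in MCH. Its share lay between 19.0 and 25.4% in vehicle and between 10.02 and 13.0% in MCH, and this difference partly restates the choice of *Phf21b*. Over all transcripts the shares of the treatments overlapped, and the minimum of 500 bases was chosen after the values were seen.

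Among 21 annotated *Phf21a* transcripts, 10 were tested and 2 had treatments that did not overlap in TPM, both higher with MCH, against 3.98% of all 33527 transcripts tested (1.46% lower, 2.52% higher). Over all 9 genes it was 4 of 34 tested transcripts. Phf21a-202, the coding transcript with the most reads (43.3% of the gene's), had 5.003 ± 0.490 TPM in vehicle and 7.96 ± 1.22 TPM in MCH (n = 4), a log2 fold change of 0.65 (SE 0.13). Phf21a-208 had 3.11 ± 0.571 TPM and 5.07 ± 0.836 TPM, a log2 fold change of 0.68 (SE 0.18). Neither passed edgeR's test over 33527 transcripts (adjusted *P* = 0.475 and 0.857). Phf21a-206 went the other way, at 6.36 ± 1.57 TPM in vehicle and 2.75 ± 1.99 TPM in MCH, with overlapping wells. So did Phf21a-209 (6188 bases, also coding and not tested), with 167, 187, 316 and 0 estimated reads in vehicle and 0 in each MCH well. How much of the Phf21a-202 difference lies in salmon's division of reads between such forms was not tested. Among the 33527 transcripts none was DE by edgeR (0%), while 1476 (4.4%) had an unadjusted *P* under 0.05 and DESeq2 called 281 (0.838%).

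*Rcor2* (ENSMUSG00000024968, chr19:7267325-7275225, plus strand) encodes one of the 3 CoREST scaffolds. Its wells held 6.62, 6.56, 8.38 and 7.50 CPM in vehicle and 8.20, 9.64, 10.3 and 9.23 CPM in MCH. MCH was higher in 4 of 4 pairs, by 0.31, 0.55, 0.29 and 0.30 on the log2 scale, and the treatments overlapped only through vehicle replicate 3 and MCH replicate 1. The mean was 7.26 ± 0.862 CPM in vehicle and 9.34 ± 0.868 CPM in MCH (n = 4). The log2 fold change was 0.36 (SE 0.11), with an adjusted *P* of 0.348 by edgeR's quasi-likelihood test without a block. With the replicate block it was 0.36 (SE 0.09) with an adjusted *P* of 0.0224 by the same test, and 1.73% of all genes were DE and higher with MCH in that fit. The pairing behind this block was read from these counts. A block for the side (replicates 1 and 2 against 3 and 4, read from these counts) gave an edgeR adjusted *P* of 0.0211, in a fit that called 4.46% of all genes (2.61% lower, 1.85% higher). When the block was joined with the correction for transcript length, the log2 fold change was 0.38 (SE 0.13) with an edgeR adjusted *P* of 0.398, in a fit that called 1 gene in all. This gene had 171 to 297 counts per well.

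The other scaffolds did not follow *Rcor2*. *Rcor1* had 21.2, 19.96, 24.7 and 21.7 CPM in vehicle and 19.3, 20.3, 22.5 and 25.1 CPM in MCH, with a log2 fold change of −0.01 (SE 0.09). *Rcor3* had 22.9, 22.1, 23.7 and 20.2 CPM in vehicle and 22.8, 23.4, 23.8 and 24.1 CPM in MCH, with a log2 fold change of 0.08 (SE 0.06). Neither passed edgeR's quasi-likelihood test (adjusted *P* = 1.00 and 0.779). The sign for *Rcor3* turned to −0.31 (SE 0.13) with the correction for transcript length. Rcor3-207 (1844 bases) had 4.55 ± 1.52 TPM in vehicle and 2.92 ± 0.326 TPM in MCH. Rcor3-202 (3791 bases) had 0.06 ± 0.12 TPM and 2.10 ± 1.84 TPM. Its highest vehicle well (0.239 TPM) and lowest MCH well (0.270 TPM) nearly met. Estimated reads on another form, Rcor3-201, were 0 in vehicle replicate 4 and MCH replicate 1 and reached 390 in MCH replicate 3. How much of the differences of Rcor3-207 and Rcor3-202 lies in salmon's division of reads was not tested. Rcor3-207 and Rcor3-202 were the 2 of 7 tested *Rcor3* transcripts whose treatments did not overlap in TPM, against 3.98% of all transcripts. The lowest adjusted *P* of any *Rcor3* transcript by edgeR was 0.984.

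Per length, over transcripts of at least 500 bases, *Rcor3* had the largest share of the scaffold TPM in each well, from 47.7 to 62.9%. Its share was 57.9 ± 3.80% in vehicle and 51.7 ± 3.36% in MCH (n = 4), with overlapping wells. *Rcor2* made up 15.2, 14.5, 18.1 and 19.6% in vehicle and 23.1, 21.8, 25.1 and 23.3% in MCH, with no overlap between treatments. The *Rcor1* share was 25.2 ± 1.80% and 24.9 ± 2.77%. No test was run on these shares.

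*Kdm1a* (ENSMUSG00000036940, chr4:136550540-136602723, minus strand), the demethylase itself, was steady. It had 103.8, 101.8, 104.0 and 106.8 CPM in vehicle and 96.2, 99.5, 98.9 and 101.8 CPM in MCH. MCH was lower in 4 of 4 pairs, and the highest MCH well and the lowest vehicle well nearly coincided. The log2 fold change was −0.07 (SE 0.03) and did not pass edgeR's quasi-likelihood test (adjusted *P* = 0.613, and 0.263 with the replicate block). *Luzp1*, with 1810 to 2129 counts per well, overlaps *Kdm1a* on the opposite strand, and the libraries were stranded.

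Transcripts with and without the alternative exons of *Kdm1a*, printed above, were then compared. Kdm1a-202, which has the 60-base exon, had 29.0 ± 1.64 TPM in vehicle and 28.4 ± 3.30 TPM in MCH (n = 4). Kdm1a-208, which has the neuronal 12-base exon, had 33.1 ± 2.70 TPM and 29.5 ± 4.46 TPM. Kdm1a-208 is annotated over only 965 bases and took 12.9% of *Kdm1a* reads but 32.9% of its TPM, so the share below is salmon's estimate over a partial transcript.

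The 12-base exon was carried by 37.9, 34.9, 33.5 and 32.9% of the TPM of transcripts spanning its place in vehicle and by 32.1, 27.9, 34.9 and 35.5% in MCH. The means were 34.8 ± 2.24% and 32.6 ± 3.44% (n = 4), a difference within the spread of wells (two-sided exact permutation test, *P* = 0.343, adjusted over 2 exons 0.686). MCH wells were below vehicle wells in replicates 1 and 2 and above them in replicates 3 and 4. This test pools the wells and does not address that split. The 60-base exon was carried by 46.9 ± 1.33% and 46.8 ± 4.09% (n = 4, exact permutation *P* = 0.943, adjusted 0.943). With 70 assignments of 8 wells, the smallest *P* this exact test can give is 0.0286. *Srrm4* had 82.1 ± 1.61 CPM in vehicle and 82.6 ± 13.4 CPM in MCH, and *Nova1* 25.0 ± 1.54 and 24.6 ± 3.41 CPM. Neither splicing factor passed edgeR's test (log2 fold changes 0.01 and −0.02).

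**Figure D3:**
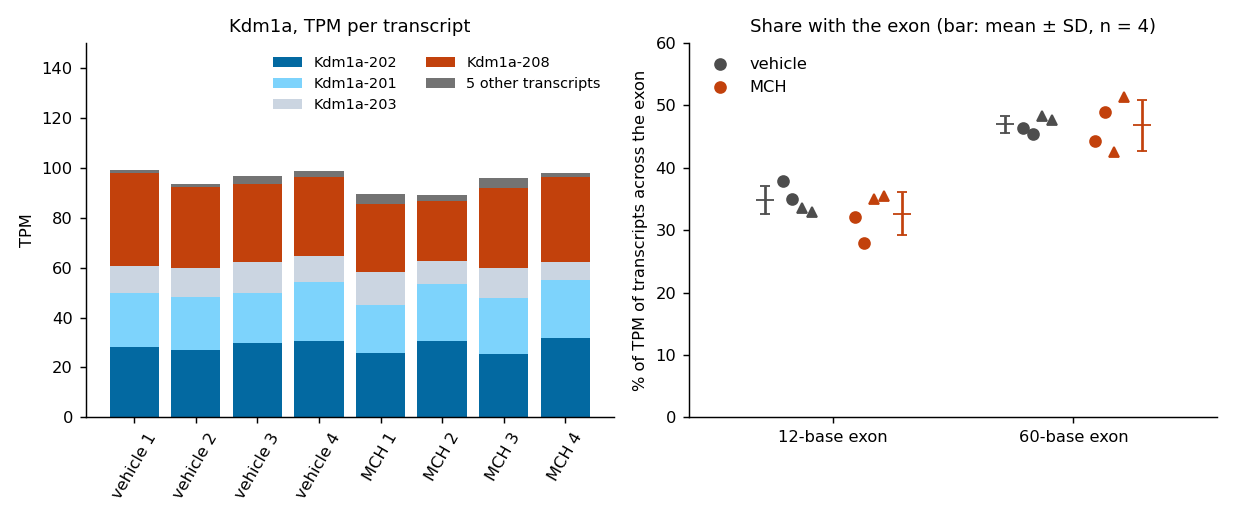
Left, TPM of *Kdm1a* transcripts in each of 8 wells, stacked by transcript. Right, percent of TPM with the 12-base or 60-base exon among transcripts across its place, with wells as points and bars as mean ± SD (n = 4); vehicle and MCH wells overlap for both exons, around means of 34.8 and 32.6% for the 12-base exon.

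The deacetylase genes also differed little. *Hdac2* had 69.6, 70.5, 69.4 and 71.6 CPM in vehicle and 67.5, 69.4, 69.1 and 67.4 CPM in MCH. Its treatments did not overlap in CPM, but vehicle replicate 3 and MCH replicate 2 differed by less than 0.01 CPM, and per length (TPM) the wells overlapped. Across all genes 6.03% had treatments that did not overlap in CPM (2.96% lower, 3.07% higher), against 2 of these 9, *Phf21b* (chosen for it) and *Hdac2*. The log2 fold change of *Hdac2* was −0.04 (SE 0.03, adjusted *P* = 0.821 by edgeR's quasi-likelihood test).

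*Hdac1* had 27.7, 27.4, 27.6 and 27.4 CPM in vehicle and 24.6, 25.5, 28.5 and 28.5 CPM in MCH. MCH replicates 1 and 2 were below all vehicle wells, and MCH replicates 3 and 4 above them. The log2 difference was −0.14 over replicates 1 and 2 and 0.05 over replicates 3 and 4, and this change of effect did not pass edgeR's test of the interaction (adjusted *P* = 0.666). *Hdac2* made up 71.2 ± 1.33% of the summed TPM of the 2 deacetylases in vehicle and 71.9 ± 2.84% in MCH (n = 4). Reads of *Hdac1* could be shared with the near-identical gene *Gm10093* (99.4% identity over 1444 bases), which was assigned 1.13 to 4.82 counts per well.

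*Rest*, which encodes the recruiting factor, was the least abundant of the set per length. It had 4.72, 4.53, 6.66 and 7.50 CPM in vehicle and 5.04, 6.12, 5.67 and 6.60 CPM in MCH. The mean was 5.85 ± 1.46 CPM in vehicle and 5.86 ± 0.660 CPM in MCH (n = 4), and the fold change did not pass edgeR's test (log2 SE 0.18, adjusted *P* = 1.00). The log2 difference was 0.26 over replicates 1 and 2 and −0.21 over replicates 3 and 4 (interaction adjusted *P* = 0.643 by edgeR). In vehicle, replicates 3 and 4, the wells with more astrocyte marker RNA, were the higher pair. Over both treatments *Rest* was higher by 0.37 on the log2 scale in replicates 3 and 4, with overlapping wells. The part of glial RNA in this was not tested.

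*Rcor1* was the 1 gene of the 9 whose replicates 3 and 4 did not overlap replicates 1 and 2, with means of 23.5 and 20.2 CPM. Such a split was found in 29.6% of all genes. The sides were read from these counts, so they are a description. No gene of the 9 passed the edgeR test for a treatment effect that differed between the sides, the lowest adjusted *P* being 0.643.

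**Figure D4:**
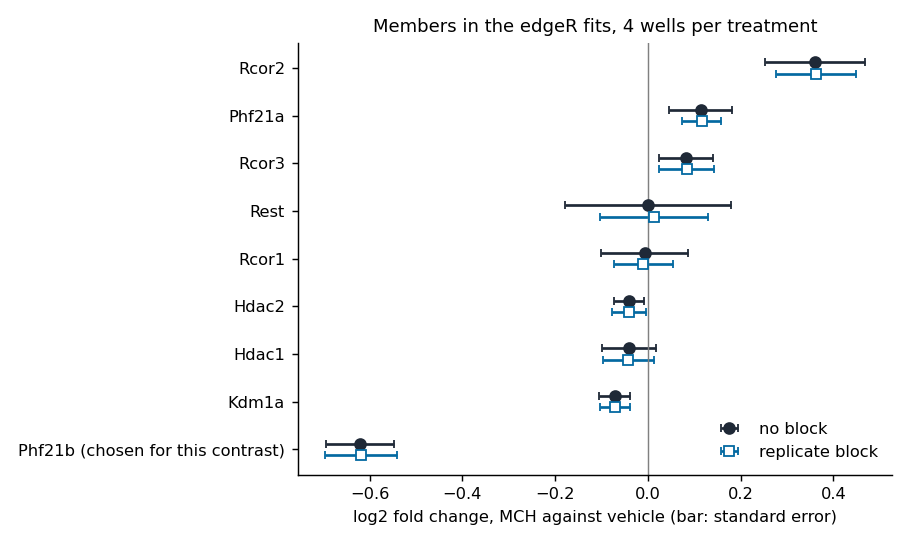
Log2 fold change of MCH against vehicle (horizontal axis) with its SE for the 9 genes, from the edgeR fit without a block (filled circles) and with the replicate block (open squares), 4 wells per treatment. *Phf21b*, chosen for this contrast, lies at −0.62, *Rcor2* at 0.36 and the other 7 between −0.07 and 0.12.

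Levels between genes were compared per length, as TPM over transcripts of at least 500 bases in all 8 wells, a minimum chosen after the values were seen. *Kdm1a* was highest at 94.96 ± 4.00 TPM (SD, n = 8), followed by *Hdac2* at 69.6 ± 3.08 TPM. *Phf21a* at 32.6 ± 5.74 TPM and *Hdac1* at 27.7 ± 2.41 TPM came next, with overlapping ranges. *Rcor3* had 17.3 ± 1.73 TPM and stood apart from its neighbours in the order.

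*Rcor1* at 7.92 ± 0.870, *Rcor2* at 6.37 ± 1.40 and *Phf21b* at 6.08 ± 1.49 TPM overlapped each with the next. *Rest* came last at 1.48 ± 0.269 TPM and lay below *Phf21b* in 8 of 8 wells. The demethylase transcript was thus several times as abundant per length as each scaffold transcript. Counting all transcripts changed the levels of *Phf21a* to 60.5 ± 8.32 TPM, *Rcor3* to 22.0 ± 3.75 TPM, *Rcor2* to 11.2 ± 2.07 TPM and *Phf21b* to 10.7 ± 2.46 TPM, because of annotated transcripts under 500 bases. On that count *Rcor2* and *Phf21b* had higher means than *Rcor1*, so the order of these 3 turned. The ranges of *Phf21a* (48.3 to 70.2 TPM) and *Hdac2* (66.2 to 76.4 TPM) then overlapped. So did those of *Rcor3* (16.9 to 29.0 TPM) and *Hdac1* (24.7 to 30.8 TPM).

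**Figure D5:**
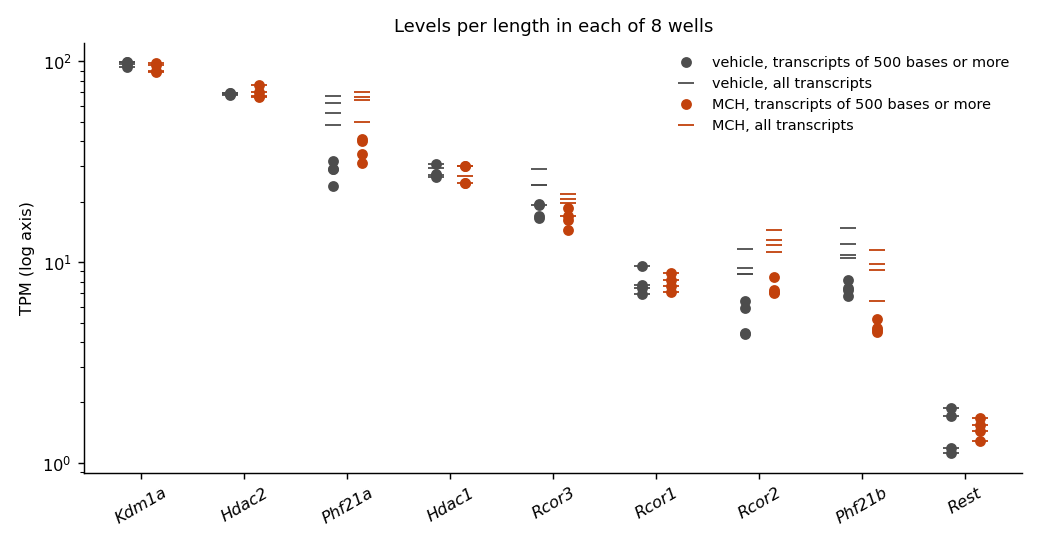
TPM of the 9 genes (log axis) in each of 4 vehicle and 4 MCH wells, in the order of their mean. Dots count transcripts of at least 500 bases and dashes all transcripts; the order runs from *Kdm1a* at 94.96 TPM to *Rest* at 1.48 TPM.

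The genes whose log2 CPM followed *Phf21b* most closely over the 8 wells were *Lbh* (Pearson *r* = 0.993), *Cfap43* (0.991), *Nedd9* (0.985), *Fosb* (0.978) and *Fos* (0.975). The last 2 encode AP-1 transcription factors induced by neuronal activity. The most opposed were *Farp2* (*r* = −0.977) and *Zfp608* (−0.971). *Fos* had 62.6 ± 7.08 CPM in vehicle and 33.3 ± 2.35 CPM in MCH (n = 4). These coefficients describe wells that share the treatments, so any gene that differs between treatments ranks high. Within the set, *r* with *Phf21b* ran from −0.85 (*Rcor2*) to 0.71 (*Kdm1a*).

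Genes that act with the complex or beside it were counted in 7 lists of 113 genes, 110 of them tested. None was DE by edgeR without a block (lowest adjusted *P* = 0.104), 56 were lower and 54 higher with MCH, and the median log2 fold change was −0.0026, against −0.0027 over all genes. With the replicate block 10 of the 110 (9.09%) were DE, 4 lower and 6 higher, against 3.98% of all genes. No test compares these shares, and the lists were chosen with earlier results of these data known.

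Among 14 tested genes for proteins associated with LSD1–CoREST, 6 were lower and 8 higher, with a median log2 fold change of 0.01, and 2 passed with the block. *Gse1*, which encodes a CoREST-associated coiled-coil protein, had 59.5 ± 3.13 CPM in vehicle and 71.0 ± 2.85 CPM in MCH (n = 4), with no overlap. Per length, *Gse1* overlapped over all transcripts (29.9 ± 4.13 and 34.3 ± 3.11 TPM) but not over those of at least 500 bases. Its log2 fold change was 0.25 (SE 0.05, edgeR adjusted *P* = 0.104 without and 0.0016 with the replicate block). *Gse1* was thus higher with MCH in the blocked fit, as *Rcor2* was. *Zfp217* had the lowest value of this list at −0.22 (SE 0.35). *Gfi1*, *Gfi1b* and *Snai1* did not have enough reads to be tested.

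Of 17 genes for REST corepressors and regulators, 9 were lower, 8 were higher and 0 passed in either fit. Their extremes were *Cdyl*, a chromodomain corepressor gene, at −0.24 (SE 0.08), and *Ctdsp1*, a phosphatase gene, at 0.12 (SE 0.49). Of 18 REST target genes, 12 were lower and 6 higher, with a median of −0.03. With the block *Bdnf* (335.7 ± 47.3 to 258.2 ± 33.4 CPM, log2 fold change −0.38, SE 0.03) and *Syt4* (−0.11, SE 0.03) fell and *Celsr3* (0.13, SE 0.04) rose. *Bdnf* encodes a neurotrophin that neuronal activity also induces. Without the block the edgeR adjusted *P* values of these 3 were 0.410, 0.940 and 0.639.

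Of 21 subunit genes of the NuRD, SIN3 and NCoR complexes, 11 were lower and 10 higher. *Gatad2b*, a NuRD subunit gene, passed with the block (103.0 ± 3.56 to 114.2 ± 6.89 CPM, log2 fold change 0.15), and the extremes were *Brms1* at −0.17 and *Gps2* at 0.17. Among the 9 other histone deacetylase genes, 5 were lower and 4 higher. *Hdac5* (252.8 ± 14.3 to 216.1 ± 12.9 CPM, −0.23) and *Hdac9* (126.7 ± 13.6 to 103.9 ± 7.81 CPM, −0.28), both of class IIa, fell in the fit with the block. *Hdac4*, of the same class, had the highest value of the list at 0.21 and did not pass (edgeR adjusted *P* = 0.0565 with the block).

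Of 15 genes for methyltransferases and demethylases of the same histone lysine, 5 were lower and 10 higher. *Setd1b*, a methyltransferase gene (log2 fold change 0.20, SE 0.05), and *Kdm5a*, a demethylase gene (0.17, SE 0.05), rose with the block (edgeR adjusted *P* = 0.0366 and 0.0381). *Kmt2c* at 0.28 (SE 0.13) and *Ash2l* at −0.06 (SE 0.04) were the extremes and did not pass. The 16 other *Phf* genes were 8 lower and 8 higher with a median of 0.00, and 0 passed in either fit. Their extremes were *Phf5a* at −0.19 (SE 0.07) and *Phf20l1* at 0.09 (SE 0.05).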

How the data were processed

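Groups and replicate numbers were taken from the sample labels, and dose, time and cultures from the study's methods and labels. The authors quantified stranded libraries with Salmon in nf-core/rnaseq (version 3) on GRCm38 and deposited estimated counts per gene (expected counts, unscaled, 9.13% not whole) and, per transcript, estimated counts, effective length and TPM. The gene counts were the sum over transcripts within 1 read for 99.0% of genes. Per the labels, processing also used DESeq2 1.13.0 and R 4.0.3. Gene and transcript names and coordinates are those of GENCODE vM21 (GRCm38). The authors may have used another release. GENCODE named 45143 of 45706 genes.

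Counts were rounded and tested in R 4.3.3 with edgeR 4.0.16 (TMM, filterByExpr with count minimum 10 and total minimum 15, robust quasi-likelihood test, Benjamini–Hochberg adjustment over all features tested, threshold 0.05). Log2 CPM used a prior count of 2. The edgeR step was tested on simulated data with 200 changed genes. DESeq2 1.42.0, RLE factors, no filter, blocks, transcript length corrections and leaving out each well were alternatives. Exons were compared with scipy 1.17.1. Deviations of same-numbered wells correlated at 0.445 to 0.545, so the numbers were taken to pair the wells (rule: each pair over 0.1). Other numbers on the same side correlated as much (0.475 to 0.521), so this rule cannot show that the numbers pair the wells. The pairing thus comes from these values only. Depth was 26083936 to 31844861 counts per well, and the floor of 3 counts covers counting error only.

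The 9 genes and the lists were chosen with earlier results of these data known. Genes named are the 9, members of the 7 lists DE without or with the replicate block, and the extremes of each of those lists. *Srrm4*, *Nova1* and the genes most and least like *Phf21b* (the 5 highest and 2 lowest correlations) are also named. Transcripts named have a mean of at least 0.5 TPM. The exon comparison was added, and *Sox10*, *Gm10093*, *Luzp1* and the untested genes were named after their values were seen. A list member that these rules would name is not reported here.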

Additional observations from a re-analysis of the deposited data

How the results depend on the processing

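The log2 fold change of *Phf21b* ranged from −0.65 to −0.42 under the 16 alternatives. *Phf21b* was chosen for being lower in these same wells, so its kept sign is a description and no test. The log2 fold changes of *Kdm1a* (−0.08 to −0.05), *Phf21a* (0.07 to 0.34) and *Rcor2* (0.32 to 0.47) also kept their signs. *Rcor2* passed the threshold with the replicate block (adjusted *P* = 0.0224) and with a block for the side (0.0211) and under no other alternative (up to 0.741). The replicate block changed no other call among the genes other than *Phf21b*. The number of DE genes, 35 without a block, was 596 with the replicate block, 668 with the side block, 171 with DESeq2, 7 with the transcript length correction, 12 when that correction left out transcripts under 500 bases and 1 when it was joined with the replicate block; the last 2 settings were chosen after seeing the data. Leaving out 1 well gave 4 to 29 DE genes. DE transcripts, 0 by edgeR, numbered 0 with the replicate block, 6 with the side block, 281 with DESeq2 and 0 to 1 with 1 well left out.

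Some log2 fold changes changed sign, most of them near 0. *Rcor3*, at 0.08 (SE 0.06) in the main fit, moved further: it was −0.31 (SE 0.13) with the length correction, −0.16 without short transcripts and −0.30 with the block as well. *Hdac2* was 0.0075, 0.0090 and 0.0055 in the same 3 fits, and *Rest* −0.0024 and −0.0013 in the first 2 of them. With 1 well left out, *Rcor1* ranged from −0.075 to 0.061, *Hdac1* from −0.066 to 0.0011 (without MCH replicate 1) and *Rest* from −0.10 to 0.15. The cause of these changes was not tested. *Rest*, at 122 to 202 counts per well, and *Rcor2*, at 171 to 297, had the lowest counts of the 9 genes. Whether depth set their spread was not tested.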
